A study of Rattus norvegicus with 12 samples.

Results

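Atp1b1, Fxyd1, Gja1 and Gja5 encode parts of the sodium pump and the gap junctions of the heart. Their probes were followed here in the left ventricle of rats given amiodarone, with whole blood as the contrasting tissue. Every non-control probe whose gene name, or a synonym of it, is 1 of these 4 symbols was taken. The rule found 4 probes of the 41012 on the array, 1 for each gene, and 4 genes of 35279 features. The probe of Gja1 is printed in 10 spots and each of the others in 1, so that 13 of 43379 non-control spots carry the 4 genes.

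The rats were male Sprague-Dawley (CD) animals of 290 to 320 g, 10 weeks old at the start according to the treatment protocol, while the sample labels give 11 weeks. Amiodarone, an antiarrhythmic drug that blocks several cardiac ion channels, was given by mouth at 300 mg/kg per day for 10 days, and the controls received the vehicle, 1% methylcellulose. Each of the 4 groups (vehicle heart, amiodarone heart, vehicle blood and amiodarone blood) held 3 pools, and each pool was hybridised to 1 single-colour array. The labels do not list which animals a pool holds, and heart and blood pools of the same number are not stated to share animals, so the p-values measure only the spread between these pools. The heart samples were left ventricle, in which all 12 cardiomyocyte markers examined were well above background on all 6 arrays.

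The sodium pump exports sodium and imports potassium at the expense of ATP. Its alpha subunit carries the catalytic site, the beta subunit brings the complex to the membrane, and small FXYD proteins tune its activity. Atp1b1 encodes the beta-1 subunit. Fxyd1 encodes phospholemman, which inhibits the cardiac pump until it is phosphorylated. Connexins form the channels of gap junctions, through which the action potential passes from cell to cell. Gja1 encodes Cx43, the main connexin of the ventricular working muscle, and Gja5 encodes Cx40, known from the atria, the fast conduction system and the endothelium of arteries.

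Each value below rests on a single 60-base oligonucleotide. The first 30 bases of each probe are shown, 5′ to 3′, since they define which stretch of the transcript was measured. The fifth line is a further probe that the array describes as an mRNA for the protein of Gja1 and that the rule does not take, because it is named by its accession.
Atp1b1: atgcagtaccccatagactggtgttaaatg
Fxyd1: ttagcaaaagatgccggtgcaaattcaacc
Gja1: acaaaaacaaaactcatcacagatgattga
Gja5: tgagaccagtcttcgatggtgaggtttttc
X06656: gtggttaatagaatgattccttataacctt

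The deposited files place these probes on rat genome build rn4. The Atp1b1 probe lies on the minus strand at chr13:80214142-80214201, the Gja1 probe on the plus strand at chr20:35422026-35422085 and the Gja5 probe on the plus strand at chr2:191843775-191843834. The Fxyd1 probe is on the minus strand at chr1:86095744-86096982. Its 60 bases span 1239 bases of the genome, so that it reads across at least 1 splice junction. Whether the other probes fall in coding sequence or in a UTR was not determined here, as no annotation of that build was used. The additional probe X06656 lies at chr20:35421821-35421880, and 145 bases separate it from the Gja1 probe. X06656 was not well above background on any of the 12 arrays, with processed signals of 1.79 to 3.90, and gave no level to set beside that of Gja1.

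Levels are given as log2 of the processed signal minus log2 of the 75th percentile of the same array, so that 0 is the 75th percentile and 1 unit is a doubling. Levels of different probes are not compared with each other, because probes differ in their response to RNA. The 75th percentile itself was 143 ± 31.1 (SD, n = 3) in vehicle heart and 130 ± 28.2 (SD, n = 3) in amiodarone heart. In blood it was 24.0 ± 2.76 (SD, n = 3) after vehicle and 73.6 ± 15.4 (SD, n = 3) after amiodarone, with 14459 to 15548 and 20625 to 21245 spots well above background. The blood groups therefore differed in brightness as well as in treatment, and the heart groups, with 21233 to 25032 spots, did not separate.

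**Figure D1:**
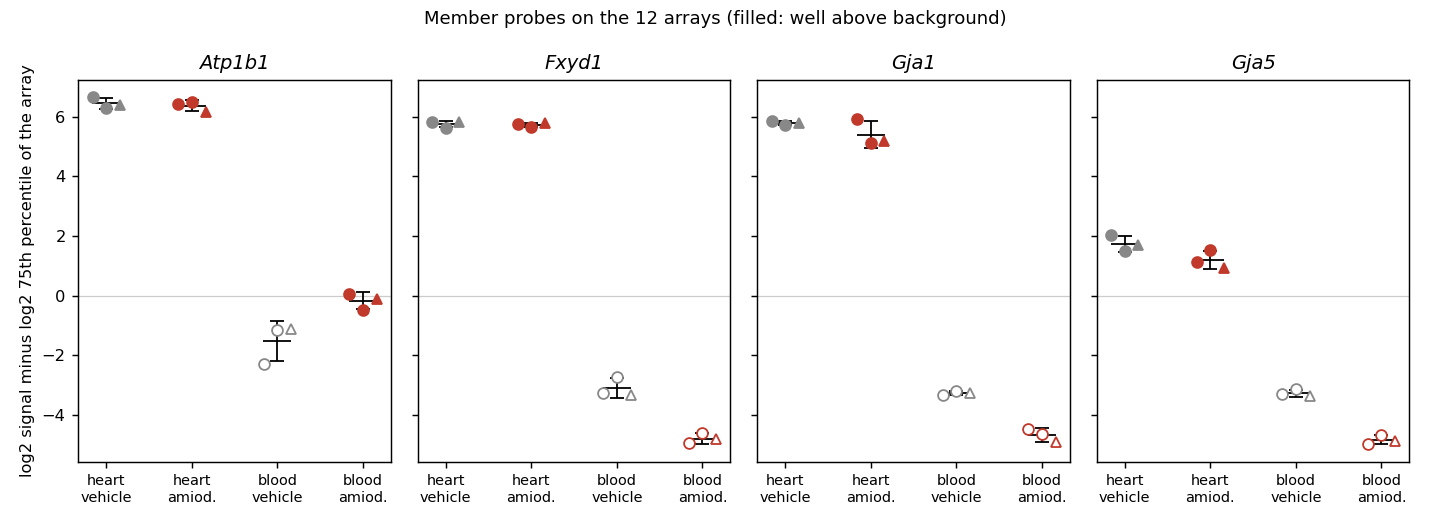
Scaled log2 level of each gene's probe on the 12 arrays, by tissue and treatment; grey is vehicle, red is amiodarone, circles are pools on the first slide of a tissue, triangles pools on the second, and horizontal marks with bars are means ± SD (n = 3). Open symbols were not well above background. In heart the groups of each gene overlap, and in blood the filled symbols are those of Atp1b1 after amiodarone.

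None of the 4 genes passed the threshold in the left ventricle after amiodarone in the limma test (adjusted p below 0.05 over all features). Of all features tested in heart, 8.57% were called. At an unadjusted p below 0.05, 1 of the 4 genes (Gja5) was under that level, against 25.1% of all features. The vehicle and amiodarone pools overlapped for each gene. The genes nevertheless differed in how tightly the change was bounded, with narrow intervals around 0 for both sodium pump genes and wider intervals, mostly below 0, for both connexins.

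Atp1b1, the beta-1 subunit, was at 6.66, 6.30 and 6.40 in the 3 vehicle hearts and at 6.44, 6.51 and 6.17 in the 3 amiodarone hearts. The highest pool was a vehicle pool and the lowest an amiodarone pool, while amiodarone pools 1 and 2 lay above vehicle pools 2 and 3. The log2 difference was -0.08 (SE 0.16, 95% interval -0.46 to 0.30, limma adjusted p = 0.796). On the linear scale the interval runs from 0.727 to 1.23 times the vehicle level. An exact permutation test of the pools, two-sided, gave p = 0.6, where 0.1 is the smallest value that 3 against 3 can give. The direction was not stable, since the difference was 0.01 with scaling to the array median and 0.02 without vehicle pool 1 or without amiodarone pool 3.

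Fxyd1, the phospholemman gene, varied least of the 4 across the heart arrays. It was at 5.82, 5.63 and 5.82 after vehicle and at 5.74, 5.66 and 5.79 after amiodarone, a range of 0.19 over the 6 arrays. The amiodarone pools all lay inside the range of the vehicle pools. The difference was -0.03 (SE 0.13, 95% interval -0.34 to 0.28, limma adjusted p = 0.919; exact permutation p = 0.6), and the interval corresponds to 0.791 to 1.22 times the vehicle level. Only 5.85% of the features tested in heart had a smaller absolute difference. Its sign changed under scaling to the array median (0.06) and in 3 of the 6 fits that left out a pool, so no direction is given.

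Gja1, the Cx43 gene, was even across the vehicle hearts and uneven across the amiodarone hearts. The vehicle pools were at 5.87, 5.73 and 5.78, with an SD of 0.067. The amiodarone pools were at 5.92, 5.11 and 5.17, with an SD of 0.45. Amiodarone pool 1 was the highest of the 6 hearts, while amiodarone pools 2 and 3 were the lowest and lay below every vehicle pool. The difference over all pools was -0.39 (SE 0.23, 95% interval -0.92 to 0.14, limma adjusted p = 0.327; exact permutation p = 0.4).

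The 10 spots of the Gja1 probe separate this spread from the noise of single spots. Within a heart array their SD was 0.033 to 0.062, smaller than the gap between amiodarone pool 1 and amiodarone pools 2 and 3. Vehicle pools 2 and 3, at 5.73 and 5.78, lay closer together than their spot SDs of 0.062 and 0.057. All 10 spots of amiodarone pool 1 lay at 5.84 or above, and all 20 of amiodarone pools 2 and 3 at 5.25 or below. Without amiodarone pool 1 the difference was -0.65 and passed the threshold (limma adjusted p = 0.0354), and the remaining leave-one-out fits gave values that did not pass (the range over all 6 was -0.65 to -0.25). Pool 1 and pool 2 shared the first slide, where the difference was -0.28, and the second slide held 1 pool of each group, which differed by -0.61. Amiodarone pool 1 also had the fewest spots well above background (21233) and the lowest 75th percentile (111) of the 6 hearts. Its summed marker level, in multiples of the 75th percentile, was the highest of the amiodarone pools for fibroblasts (177, against 130 and 142), endothelium (175, against 165 and 146) and red cells (20.6, against 18.7 and 17.2). That level was the lowest for smooth muscle (403, against 447 and 433) and platelets (17.1, against 18.2 and 21.5). The same held for arterial endothelium, the conduction system, nerve and glia, and leukocytes, and for atrial markers pool 1 lay between the others. The summed level of the 12 cardiomyocyte markers was 10692, 10733 and 11547 in amiodarone pools 1 to 3 and 9359 to 12772 in vehicle hearts, and 0 of the 12 markers passed the threshold. The part of these measures in the Gja1 values was not tested.

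**Figure D2:**
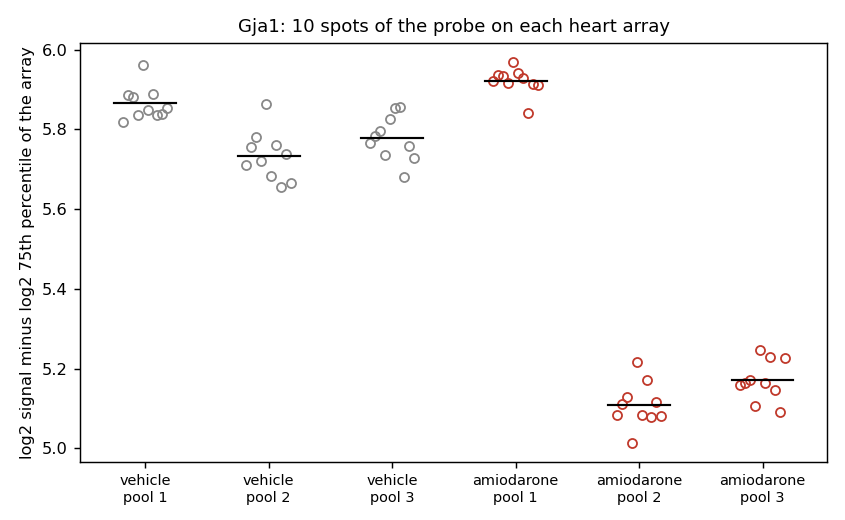
Scaled log2 level of each of the 10 spots of the Gja1 probe on the 6 heart arrays (grey vehicle, red amiodarone), with a horizontal line at the mean of each array. The spots of a pool stay together, those of amiodarone pool 1 at 5.84 or above and those of amiodarone pools 2 and 3 at 5.25 or below.

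Gja5, the Cx40 gene, had the largest mean difference of the 4. Its levels were 2.04, 1.51 and 1.69 in vehicle hearts and 1.13, 1.54 and 0.93 in amiodarone hearts. Amiodarone pools 1 and 3 were below every vehicle pool, and amiodarone pool 2 lay just above the lowest of them. The difference was -0.54 (SE 0.21, limma adjusted p = 0.166; exact permutation p = 0.2). Its 95% interval, which is not corrected for the number of features, was -1.04 to -0.05, or 0.488 to 0.967 times the vehicle level, and the unadjusted p was 0.0355. The value was below 0 in each of 18 alternative settings (-0.71 to -0.40) and past the threshold in none of them (adjusted p = 0.0716 to 0.484). With 1 probe, the filter and block settings and the mean of all probes cannot move the difference, which stayed at -0.54. Those settings therefore say nothing about its sign. It was -0.44 on the first slide and -0.76 on the second. Of the features tested in heart, 81.7% had a smaller absolute difference than Gja5, 69.2% a smaller one than Gja1 and 16.8% a smaller one than Atp1b1.

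Because Gja5 is known from particular cells of the heart, markers of these cells were read on the same arrays. In bulk tissue, fewer cells of a type and less RNA per cell cannot be told apart. Of 6 arterial endothelial markers, 4 were measured on all heart arrays and 0 passed the threshold. Their summed level was 4.40 to 4.89 after vehicle and 3.90 to 4.47 after amiodarone, and Bmx and Efnb2 were not above background. Most of that sum was Gja4, itself a connexin gene, and the other 5 markers summed to 0.632 to 0.846 after vehicle and 0.781 to 0.877 after amiodarone. Of 8 conduction system markers, Hcn4 and Cpne5 were among those not above background on any heart array, and 3 were tested, of which 0 passed. That sum was 4.12 to 5.52 after vehicle and 6.00 to 6.24 after amiodarone. The 6 atrial markers on the array summed to 879 to 967 in vehicle hearts and to 925, 825 and 1805 in amiodarone pools 1 to 3. Of 8 endothelial markers tested, 0 rose and 1 fell, with sums of 146 to 161 after vehicle and 146 to 175 after amiodarone. Fibroblast markers were lower after amiodarone, with 4 of 7 tested past the threshold and sums of 237 to 319 against 130 to 177. Red cell markers were lower too, with 5 of 7 past it and sums of 67.0 to 96.9 against 17.2 to 20.6. Over all heart features, 4.23% were called lower. The part of these cell types in the values of the 4 genes was not tested.

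**Figure D3:**
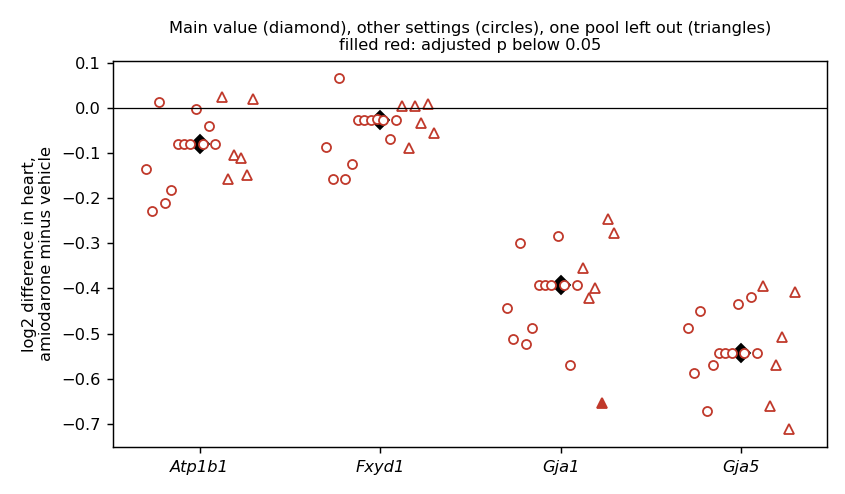
Log2 difference in heart, amiodarone minus vehicle, for each of the 4 genes under the main setting (black diamond), under 12 other settings of scaling, background, filter and model (circles) and without each pool in turn (triangles). Atp1b1 and Fxyd1 scatter around 0, Gja1 and Gja5 stay below it, and the filled triangle is Gja1 without amiodarone pool 1. Circles of the filter and block settings and of the mean of all probes equal the main value.

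Within the sodium pump family, 3 FXYD genes other than Fxyd1 fell in heart and no beta subunit passed the threshold. Of 15 genes of the pump, 11 were tested in heart; 0 rose and 3 fell, against 4.35% higher and 4.23% lower calls over all features. The median difference of the tested genes was -0.04, beside 0.02 over all features, and at an unadjusted p below 0.05, 2 were higher and 4 lower. The list and its members were chosen with earlier results of these data known.

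Fxyd3, a FXYD protein best known from epithelia and tumours, fell most. It was at 3.02, 2.59 and 2.07 in vehicle hearts and at 0.71, 1.097 and 0.76 in amiodarone hearts, and the groups did not overlap. The difference was -1.71 (SE 0.25, limma adjusted p = 0.00861). Fxyd6, also called phosphohippolin and described first in the brain, was at 4.28, 4.59 and 4.18 against 3.59, 3.33 and 3.24, a difference of -0.96 (SE 0.17, limma adjusted p = 0.0161). Fxyd5, or dysadherin, which lowers cell adhesion, was at 1.83, 2.09 and 1.78 against 1.32, 1.14 and 1.22, a difference of -0.67 (SE 0.15, limma adjusted p = 0.0338). All 3 falls kept their sign in each of 18 alternative settings, of which the filter and block settings left the differences unchanged. The falls were not equally firm. Without 1 pool, Fxyd3 was called in 6 of 6 fits, Fxyd6 in 3 and Fxyd5 in 1. A second Fxyd5 probe gave -0.30 (limma adjusted p = 0.261 over all probes). Fibroblast markers fell in the same hearts, with the sums given above, and their part in these falls was not tested.

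The other beta subunits did not pass the threshold. Atp1b2 was at 0.87, 1.41 and 1.74 after vehicle and at a mean of 2.07 after amiodarone, with no overlap, a difference of 0.73 (SE 0.22, limma adjusted p = 0.0934), and Atp1b3 differed by -0.01 (SE 0.16). Fxyd2, the gamma subunit of the kidney pump, differed by 0.16 (SE 0.18) and Fxyd7 by 0.38 (SE 0.16), and neither passed.

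**Figure D4:**
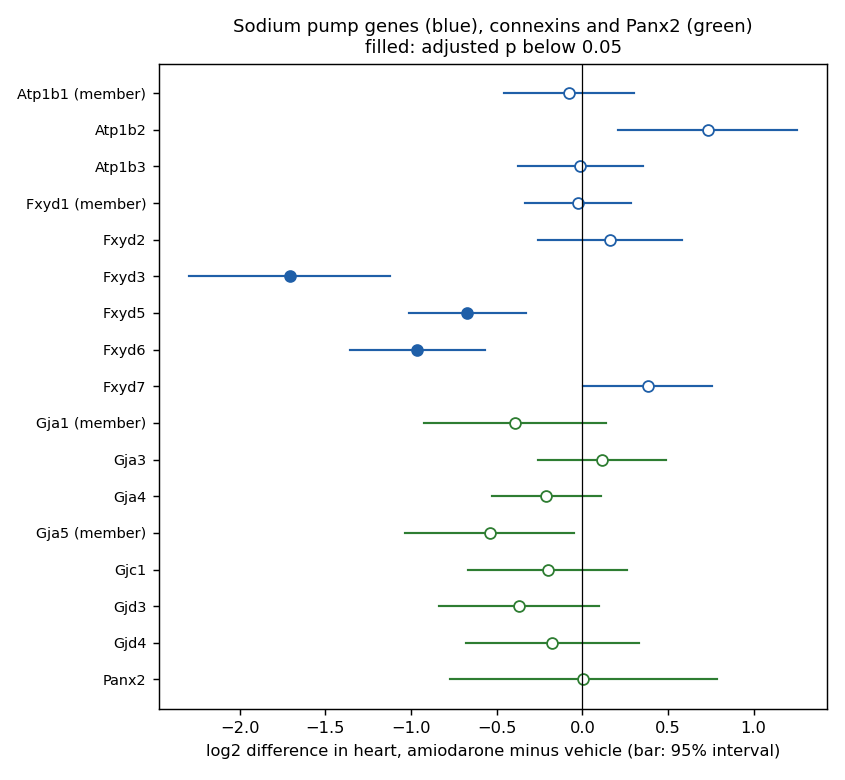
Log2 difference in heart, amiodarone minus vehicle, for tested sodium pump genes (blue) and tested connexins and a pannexin (green) named in the text, with 95% intervals from limma. Filled points passed the adjusted threshold, namely Fxyd3, Fxyd5 and Fxyd6; the 4 genes followed here are marked as members and are open.

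Of 23 connexin and pannexin genes, 22 were on the array and 10 were tested in heart. None rose and 1 fell, and at an unadjusted p below 0.05 there were 0 higher and 2 lower.

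Gja4, the Cx37 gene of arterial endothelium, was at 1.92, 2.03 and 1.91 after vehicle and at 1.59, 1.85 and 1.78 after amiodarone, with no overlap and a difference of -0.21 (SE 0.14, limma adjusted p = 0.382). Gjc1, the Cx45 gene of the conduction system, differed by -0.20 (SE 0.20) and Gja3 by 0.11 (SE 0.16). A second Gjc1 probe gave -0.40 (SE 0.21, limma adjusted p = 0.291 over all probes). Gjd3 and Gjd4 differed by -0.37 (SE 0.20) and -0.18 (SE 0.22), and Panx2, a pannexin, by 0.01 (SE 0.33), and none of these passed. The median of the tested list was -0.29, beside 0.02 over all features.

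Genes that work alongside the 4 are given as counts, to be read against the 8.57% of all heart features called. The intercalated disc, the junction between cardiomyocytes in which Cx43 sits, had 14 of 15 genes tested; 1 rose and 0 fell. The riser was Nrap, a protein anchoring myofibrils at the disc, at 7.36, 7.34 and 7.31 after vehicle and 7.85, 8.24 and 7.98 after amiodarone. The difference was 0.69 (SE 0.15, limma adjusted p = 0.0325), and 5 of 6 leave-one-out fits lost the call. Of sodium exchangers and cotransporters, 0 of 6 tested passed, with 1 lower at an unadjusted p below 0.05. Of proteins that transport or phosphorylate connexins, 0 of 7 passed and 0 at the unadjusted level. Of cardiac transcription factors, 0 of 11 passed, with 1 lower at the unadjusted level.

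The genes whose pattern over the 6 heart arrays was most like each of the 4 were taken by Pearson's r among 8943 further features. The arrays include both treatments, and with 6 points high values are common among so many features. For Atp1b1 they were Tlk2 (r = 0.998), Or8b59 (0.981) and Hspe1 (0.977). For Fxyd1 they were Tpm1 (r = 0.969), Atp5f1e (0.968) and Tusc2 (0.963). For Gja1 they were Ptp4a2 (r = 0.994), Tfdp1 (0.976) and Homer1 (0.974), and for Gja5 Zzef1 (r = 0.993), Plaat5 (0.988) and Fkbp11 (0.988).

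In blood, Fxyd1, Gja1 and Gja5 were not well above background on any of the 6 arrays and were not tested between treatments. Their processed signals were 2.33 to 3.18 for Fxyd1, 2.28 to 3.96 for Gja1 and 2.23 to 2.79 for Gja5. The signals of both treatments overlapped, and the lower scaled levels after amiodarone come from the higher 75th percentile of those arrays. All 4 genes were higher in vehicle heart than in vehicle blood, in a comparison in which 81.1% of features were called and 42.2% of features were higher in heart. Where a probe was not above background, its level was bounded on each array by the higher of its own value and the lowest signal called well above background. By that bound Atp1b1 was at least 211-fold, Fxyd1 at least 142-fold, Gja1 at least 145-fold and Gja5 at least 8.77-fold higher in vehicle heart (limma adjusted p = 3.83e-10, 9.43e-12, 1.98e-11 and 6.91e-10). The probes entered this test through heart, so these p-values are against background signal. After amiodarone Fxyd1, Gja1 and Gja5 were at least 399-fold, 317-fold and 17.3-fold higher in heart than in blood. All these bounds were computed for the main scaling and background only. Heart and blood RNA were extracted with different kits, and tissue and kit cannot be told apart.

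Atp1b1 was the only one of the 4 measured in blood, and only after amiodarone. Its processed signals were 5.29, 9.44 and 11.4 in vehicle blood, none well above background, and 91.3, 40.4 and 71.2 in amiodarone blood, all well above it. On the scaled log2 scale these were -2.31, -1.15 and -1.14 against 0.07, -0.49 and -0.11, with no overlap. On these scaled values the bound put the gene at least 2.13-fold higher after amiodarone. That floor was computed for the main scaling and background only. The fitted difference was 1.35 (SE 0.35, limma adjusted p = 0.0119). The probe entered through the amiodarone arrays alone, so the bound, fitted value and p all set a measured group against background signal. In that comparison 67.4% of all features were called, 40.3% as higher and 27.1% as lower, and the median of all features was 0.44. After normexp background correction the difference was 0.21 and no longer passed (limma adjusted p = 0.347).

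Other blood measures were read in the same groups, where 40.3% of all features were called higher and 27.1% lower. Leukocyte markers summed to 578 to 678 times the 75th percentile after vehicle and 926 to 986 after amiodarone, with 5 of 10 higher and 1 lower. Platelet markers summed to 1501 to 2338 and 2580 to 4298, with 4 of 5 higher. Red cell markers summed to 11238 to 18437 and 2800 to 5124, with 7 of 7 lower. All these sums are multiples of a 75th percentile that itself was 24.0 after vehicle and 73.6 after amiodarone. The directions are therefore those of scaled levels only. Of 12 cardiomyocyte markers, 8 were not above background on any array in each blood group, Myh6, Myl3 and Tnni3 among them in both. The part of the cell types and of array brightness in the Atp1b1 difference was not tested.

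In 1 fit of all 12 arrays the contrast of the Atp1b1 drug effects, heart minus blood, was -1.43 on the log2 scale (SE 0.40, limma adjusted p = 0.0121). It uses the same vehicle blood arrays, on which the probe was below background, and is given as a value, not as support for a difference between tissues. Of the features tested in both tissues, 51.4% were called in that contrast. The value was -0.34 after normexp background correction and did not pass (limma adjusted p = 0.304). The remaining 3 genes could not be compared in this way.

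Elsewhere in both families, 9 pump genes were tested in blood, of which 4 rose and 3 fell, and 8 connexins and pannexins, of which 2 rose and 5 fell. Over all blood features 40.3% were higher and 27.1% lower. In the limma fit after normexp background correction these counts were 0 and 0 for the pump genes, and 0 and 1 for connexins and pannexins. Without scaling they were 8 and 0, and 3 and 0. No direction is therefore given for either family in blood.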

How the data were processed

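Per the file headers, the scanner files came from Agilent Feature Extraction 9.5.1.1 and give a processed intensity per spot, background-subtracted and detrended but not normalized between arrays. They also hold, per the file headers, the raw mean and local background intensity and other columns of flags. The normalized intensity that the authors deposited is on a linear scale and was made for heart and blood separately by a method not given in the sources used here, so it served as an alternative only.

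Intensities were moved to log2, outlier spots were left out, the spots of a probe were averaged, and log2 of the array's 75th percentile was subtracted. Probes entered the test of a tissue if all 3 arrays of 1 group or of both showed them well above background, and a symbol was represented by its brightest such probe. All 4 genes passed this filter in heart and 1 passed it in blood. Of 41012 probes, 16336 were named by accession, 3732 by symbol, 1098 by synonym in the RefSeq annotation and 19846 kept the name in the file. Separate fits of heart and blood used limma 3.58.1 in R 4.3.3 with data.table (1.17.8), two-sided, with Benjamini-Hochberg adjustment over all features. The heart and blood effects were compared in 1 fit of 12 arrays. The limma fit with its adjustment was run on simulated data, and the steps before it were not. The outcome of that run is not reported here and was not used to judge the genes that did not pass. The members, gene lists and tests were chosen with earlier results of these data known. Named genes are the 4 members with every probe, list genes called in heart, pump and connexin genes measured in heart, and the 3 closest patterns per member. Some genes of the lists are counted but not reported here by name. In each tissue the first slide held pools 1 and 2 of both groups and the second slide pool 3. The number of arrays limits the precision.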

Additional observations from a re-analysis of the deposited data

Results flagged for a closer look

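The drug effect on Atp1b1 in heart minus that in blood was -1.43 on the log2 scale (SE 0.40, limma adjusted p = 0.0121). It is listed here because this contrast between 2 tissues passed the threshold. The effect was -0.08 in heart and 1.35 in blood, where vehicle arrays did not measure the probe above background. The probe entered the blood test through the amiodarone arrays alone, so the p sets a measured group against background signal and supports no difference between the tissues. The contrast was -1.63 to -1.04 in leave-one-out fits and -0.34, not past the threshold, after normexp background correction.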

How the results depend on the processing

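Gja5 kept its direction and did not pass the threshold in heart in each of 18 alternatives, as did Gja1 in 17 of 18. The filter and block settings and the mean of all probes cannot move the differences of these 1-probe genes, only their p-values. Leave-one-out differences ranged from -0.16 to 0.02 for Atp1b1, -0.090 to 0.0083 for Fxyd1, -0.65 to -0.25 for Gja1 and -0.71 to -0.40 for Gja5; the reversed ones were 0.024 and 0.020 for Atp1b1 and 0.0042, 0.0033 and 0.0083 for Fxyd1. Scaling to the array median gave 0.013 for Atp1b1 and 0.065 for Fxyd1, and moved the median of all heart features to 0.11, from 0.02; relative to it the values were -0.10 and -0.05. The heart count of 1497 calls was 735 without scaling, 290 without the filter, 275 on the first slide only and 2447 with array weights, and 518 to 1311 in leave-one-out fits. Higher calls were 50.7% of heart calls, 64.0% with array median scaling and 30.6% without scaling. In blood, 10563 calls became 737 after normexp and 24663 without the filter; 59.8% were higher, against 69.5% with median scaling and 97.5% without scaling. The tissue contrast called 6697 features, 1021 after normexp and 10268 without scaling. Normexp also ended the Atp1b1 calls in blood (0.21) and between tissues (-0.34). The causes were not tested. A stricter filter left Atp1b1 untested in blood. Of 18 alternatives, the heart call was kept in 17 for Fxyd3, 11 for Fxyd6, 7 for Fxyd5 and 7 for Nrap.

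With the replicate number as a block, heart had 699 calls, blood 10725 and the tissue contrast 6651; the difference of each of the 4 genes kept its side of the threshold, and of the other genes named in heart Fxyd6 (limma adjusted p = 0.0503), Fxyd5 (0.0955) and Nrap (0.0836) lost their call. Same-numbered pools deviated together with r of -0.17, -0.24 and 0.32 in heart and 0.08, 0.17 and 0.31 in blood, so the numbers were not taken as a pairing, and not every pool correlated best with its own number. Signal over background limits the blood values, where 3 of the 4 genes were not measured.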
